A study of Homo sapiens with 10 samples.

Results

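The 50 genes described here act in G1 and S phase of the cell cycle: E2F transcription factors, G1 cyclins, inhibitors of cyclin-dependent kinases (CDKs), and genes of replication licensing, nucleotide synthesis and DNA replication. They were taken by symbol from a list, and all 50 were found among the 58676 genes of the deposited count tables and passed the filter on low counts, which left 16936 genes for testing. The 10 RNA libraries come from HEK293T, an established line derived from human embryonic kidney. By their labels, 3 libraries came from cells that overexpressed BRSK2 for 24 h, 3 from cells that overexpressed BRSK1 for 24 h, 2 from cells that overexpressed hcRED, a red fluorescent protein, for 24 h, and 2 were mock samples (Mock). BRSK1 and BRSK2 are AMPK-related serine/threonine kinases. All groups are 1 established line, and the labels name neither a promoter or vector nor separate cultures, so the p-values rest on the spread of these libraries alone, and that spread may be technical.

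As cells pass from G1 into S phase, D-type and E-type cyclins activate CDKs that phosphorylate the RB proteins and so free the activator E2Fs (E2F1, E2F2 and E2F3). These raise the transcription of genes for origin licensing, DNA synthesis and nucleotide supply, while E2F7 and E2F8 repress the same promoters later in S phase. Licensing is the loading of the MCM2 to MCM7 helicase onto origins by ORC, CDC6 and CDT1, and geminin (GMNN) holds CDT1 in check. HEK293T cells carry the SV40 large T antigen, which binds RB proteins.

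The libraries held 16516116 to 24304302 counts. BRSK2 stood at 69928 to 103644 CPM (counts scaled by the library's total) where it was overexpressed and at 73.5 to 99.0 CPM elsewhere, and BRSK1 at 47151 to 69608 CPM in the BRSK1 libraries and at 10.3 to 28.7 CPM elsewhere, so each label matched its gene. Of the markers chosen for HEK293T, NEFM stood at 133 to 183 CPM and KRT8 at 22.8 to 32.7 CPM over the libraries. Of 12 markers of other lineages 3 had a median of at least 1 CPM, COL1A1, COL3A1 and KRT14, and PTPRC was at 0 in every library. The summed level of those 12 was 26.8 to 69.4 CPM in BRSK1, 27.3 to 41.2 in BRSK2, 38.3 to 43.5 in hcRED and 44.1 to 45.2 in Mock. In bulk RNA, a change in the share of cells in a cell cycle phase and a change in RNA per cell cannot be told apart.

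The levels of the 50 genes spanned a wide range. Per kilobase of the gene length in the deposited tables, and averaged over the 10 libraries, the highest were MCM7, a helicase subunit (168 CPM per kb), PCNA, the sliding clamp (140), MCM3 (101) and CDT1 (87.9). The lowest were the CDK inhibitor CDKN1C (2.12 CPM per kb), cyclin E2 (CCNE2, 2.66) and cyclin D1 (CCND1, 2.67). All other levels below are TMM-scaled CPM, which compare 1 gene across libraries and not 1 gene with another. Some levels are uncertain because genes overlap and strand use in the counting is not given in the sources used here: TYMS (mean 15.2 CPM) shares 3255 bases with ENOSF1 on the opposite strand, CCNE2 overlaps INTS8 and NDUFAF6, CCND1 overlaps ORAOV1, and FEN1 shares 4265 bases with FADS2 on the same strand. Reads of PCNA and RRM2 may also be shared with processed pseudogenes.

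The first question was what BRSK2 changed among these genes, with the average of both control groups as the baseline. The licensing factor CDT1 and the activator E2F1 had the smallest p of the 50, and 10 genes rose while 4 fell (edgeR, quasi-likelihood F test, adjusted p under 0.05). The 14 are 28% of the list, beside 7.82% of all tested genes, of which 4.77% were called higher and 3.05% lower. The list's median log2 fold change was 0.07, against 0.00 for all tested genes, and the genes lay between -0.37 and 0.85. In 12 of the 50 genes all BRSK2 libraries lay above all controls and in 9 below, beside 9.09% and 8.2% of all tested genes (17.3% either way). The members and the list were chosen with results of these data known, so these shares are a description.

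**Figure D1:**
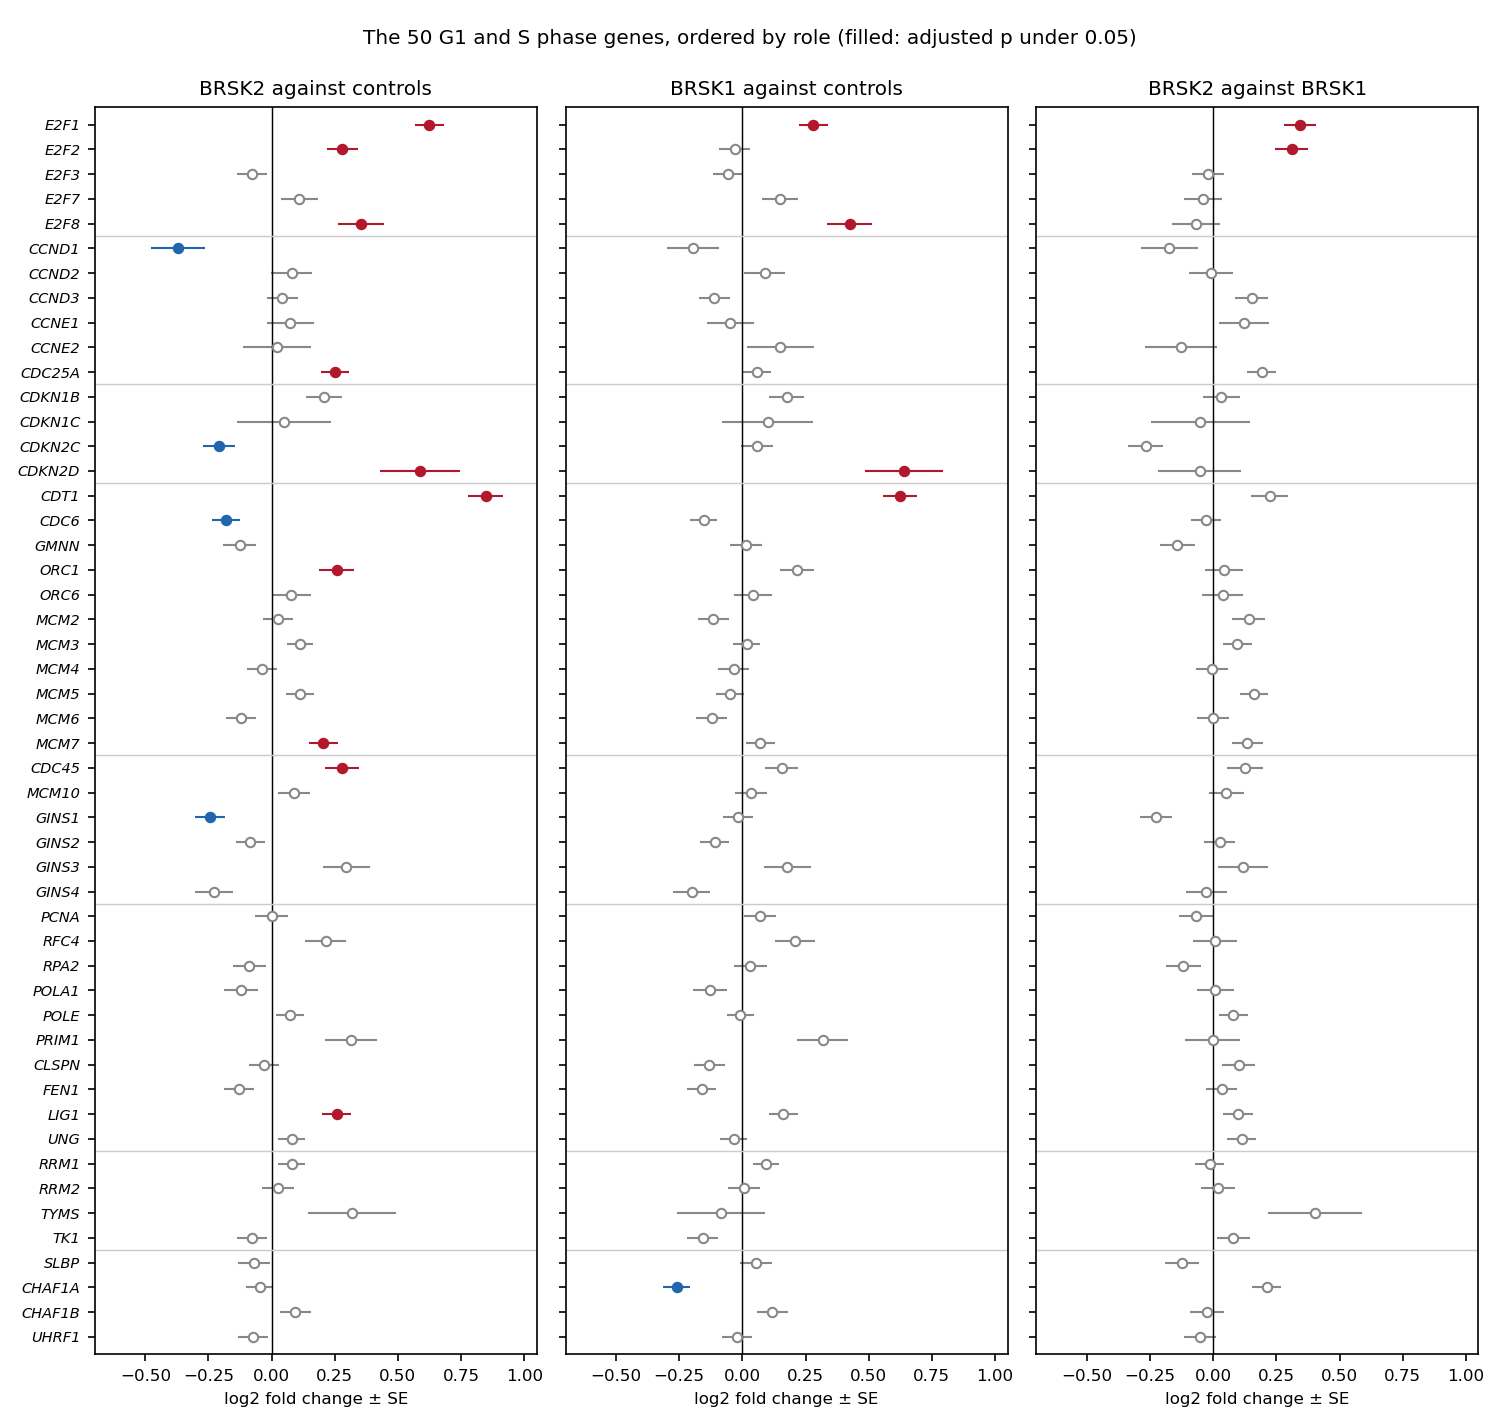
Log2 fold change ± SE (x axis) of each of the 50 genes (y axis, ordered by role, with grey lines between roles) in 3 comparisons: BRSK2 (n = 3) against the mean of hcRED and Mock (n = 2 each), BRSK1 (n = 3) against the same controls, and BRSK2 against BRSK1. Filled points passed at an adjusted p under 0.05, red higher and blue lower: 14 genes in the first panel, 5 in the second and 2 in the third, with CDT1 farthest to the right with BRSK2 at 0.85. The first and second panels share their control libraries.

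Because E2F factors regulate many of these genes, their promoters were read for the E2F-type sequence TTTNNCGC on both strands (GCGNNAAA on the other), in the 250 bases before the RefSeq start (GRCh38.p14), with overlapping matches counted separately. A promoter sequence was at hand for 41 of the 50 genes. Of these, 17 (41.5%) held at least 1 match, beside 8.8% of 11878 promoters of tested genes and 5.92% of 35116 promoters in all. Matches were in 7 of 9 promoters of genes higher with BRSK2, 0 of 3 of genes lower with it and 10 of 29 of genes without a call. For 32 of the 41, the 20 bases after the RefSeq start were found in a GENCODE 29 transcript of the gene. Of the promoters with a match, those of E2F2, CDC25A, E2F3, MCM6 and POLA1 were not among the 32, so their starts are less certain. The CCAAT box (CCAAT, or ATTGG on the other strand), which binds NF-Y, was in 25 of the 41 (61%) and in 34.9% of the promoters of tested genes. A match is a stretch of letters and not a shown binding site. For E2F only TTTNNCGC was read, so a promoter without a match was not shown to lack E2F sites.

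**Figure D2:**
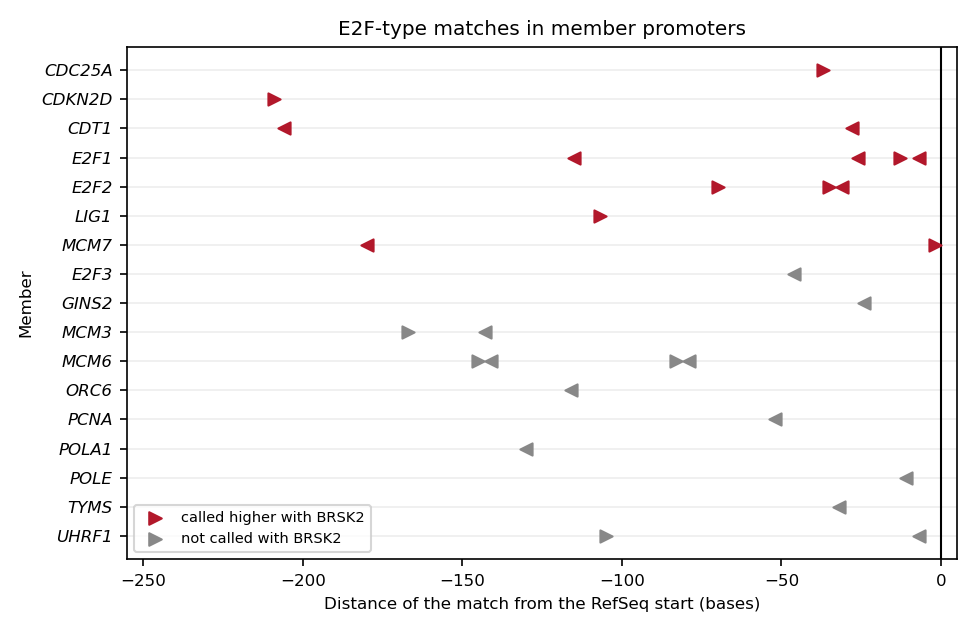
Distance in bases (x axis) of each match to TTTNNCGC from the RefSeq start for the 17 member promoters with a match (y axis). Triangles point right for a match on the gene's strand and left for the other, red for genes called higher with BRSK2 (7 promoters) and grey for genes not called (10). The E2F1 promoter holds 4 matches, 3 of them within 26 bases of the start.

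The matches of the genes called with a kinase are printed below, since these are the promoters in which the called genes and the motif coincide. Each runs 5′ to 3′ on the gene's strand, with matches in capitals, and in lower case the bases around them. For CDT1, MCM7 and LIG1 a GENCODE 29 exon starts upstream of the RefSeq start, so 30 bases around a match are given. The last 19 bases of the E2F1 window also lie in an annotated exon. The windows are chr20:33686386-33686532 (minus strand) for E2F1, chr1:23531239-23531335 (minus) for E2F2, chr3:48188429-48188486 (minus) for CDC25A, chr19:10569163-10569220 (minus) for CDKN2D, chr16:88803565-88803594 and chr16:88803743-88803772 (plus) for CDT1, chr7:100101566-100101595 and chr7:100101398-100101427 (minus) for MCM7 and chr19:48170440-48170469 (minus) for LIG1.
E2F1: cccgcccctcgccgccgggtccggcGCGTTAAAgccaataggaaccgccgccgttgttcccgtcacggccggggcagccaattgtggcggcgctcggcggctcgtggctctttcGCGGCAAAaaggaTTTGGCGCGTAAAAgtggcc
E2F2: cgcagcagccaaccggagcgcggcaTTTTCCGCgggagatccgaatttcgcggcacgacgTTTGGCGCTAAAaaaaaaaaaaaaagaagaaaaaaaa
CDC25A: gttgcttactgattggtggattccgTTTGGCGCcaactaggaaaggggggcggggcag
CDKN2D: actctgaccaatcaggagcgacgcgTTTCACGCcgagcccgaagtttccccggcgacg
CDT1, distal: atccggagaccGCGCTAAAgtcccacgcac
CDT1, proximal: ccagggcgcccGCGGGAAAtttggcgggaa
MCM7, distal: cagctcggaccGCGGGAAAcccggcgcctg
MCM7, proximal: ccggtcacgtggggggcgacgTTTCGCGCc
LIG1: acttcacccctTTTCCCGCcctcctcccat
E2F1 holds a pair of overlapping matches on opposite strands, as does E2F2, and MCM6 holds such pairs too. E2F1 and CDT1, the genes with the smallest p with BRSK2, hold 4 and 2 matches. MCM6, with 4 matches, and MCM3 and UHRF1, with 2 each, were not called with either kinase.

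Among the E2F factors, E2F1 (ENSG00000101412; hg38 chromosome 20, minus strand, 33675683 to 33686404), an activator of S phase genes, stood at 155, 163 and 178 CPM in BRSK2 replicates 1, 2 and 3. It stood at 137, 127 and 127 CPM in BRSK1 replicates 1, 2 and 3, at 105 and 106 in hcRED, and at 110.1 and 108 in Mock. The 3 groups did not overlap: BRSK2 was above BRSK1, and BRSK1 above all 4 controls. E2F1 rose with BRSK2 by 0.62 ± 0.06 (log2 fold change ± SE, adjusted p = 3.37e-07), or 1.54-fold, and with BRSK1 by 0.28 ± 0.06 (adjusted p = 0.00716), or 1.22-fold. Both calls held in each of the 26 alternatives run, with log2 fold changes of 0.52 to 0.67 with BRSK2 and 0.24 to 0.31 with BRSK1.

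E2F2 (chromosome 1, minus strand, 23506430 to 23531220), the second activator, stood at 69.9, 71.0 and 72.6 CPM with BRSK2. It was at 55.8, 57.1 and 59.0 CPM with BRSK1, 58.4 and 57.2 in hcRED and 58.6 and 59.995 in Mock, so only the BRSK2 libraries stood apart. E2F2 rose with BRSK2 by 0.28 ± 0.06 (adjusted p = 0.00614), a call lost without BRSK2 replicate 3 (adjusted p = 0.0555) and when library totals alone set the scale (0.0535). With BRSK1 it was at -0.03 ± 0.06 (adjusted p = 0.818). E2F3, the remaining activator, did not pass with either kinase (-0.08 ± 0.06 with BRSK2 and -0.06 ± 0.06 with BRSK1).

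E2F8 (chromosome 11, minus strand, 19224063 to 19241620), a repressor of E2F target genes, stood at 21.6, 22.8 and 23.8 CPM with BRSK2 and at 21.997, 24.5 and 25.004 CPM with BRSK1. The controls lay lower, at 20.1 and 17.9 in hcRED and 16.04 and 17.3 in Mock, with no overlap. It rose with both kinases: the change was 0.36 ± 0.09 for BRSK2 (adjusted p = 0.0177), and the BRSK1 value was 0.42 ± 0.09 (adjusted p = 0.00716). Against hcRED alone neither call held (adjusted p = 0.199 and 0.143), and the BRSK1 call was lost without BRSK1 replicate 3 (0.064). The BRSK2 call did not hold without BRSK2 replicate 2 (adjusted p = 0.062), BRSK2 replicate 3 (0.113), Mock replicate 2 (0.051) or hcRED replicate 3 (0.0773), and by library totals alone (0.0544). E2F7, the other atypical E2F, was at 0.11 ± 0.07 with BRSK2 and 0.15 ± 0.07 with BRSK1 and passed with neither.

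Of the origin licensing genes, CDT1 (ENSG00000167513; chromosome 16, plus strand, 88803213 to 88809258) differed most from the controls with BRSK2, both in the size and in the significance of its change, among the 50. Its level was 355, 372 and 402 CPM with BRSK2 and 302, 309 and 355 CPM with BRSK1. The hcRED libraries were at 199 and 234 CPM and the Mock libraries at 207 and 198, so that every kinase library lay above every control, while BRSK1 replicate 3 reached the lowest BRSK2 library. CDT1 rose 1.80-fold for BRSK2 (0.85 ± 0.07, adjusted p = 2.48e-08) and 1.54-fold for BRSK1 (0.62 ± 0.07, adjusted p = 9.09e-06). Both calls held in all 26 alternatives run, with log2 fold changes of 0.74 to 0.91 and 0.55 to 0.68. By size of p it ranked 3 of the 16936 tested genes with BRSK2 and 5 with BRSK1.

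The genes that act with CDT1 are described next. GMNN, its inhibitor, was at -0.13 ± 0.06 for BRSK2 (adjusted p = 0.241), and the BRSK1 value was 0.02 ± 0.06 (adjusted p = 0.922). CDC6 (chromosome 17, plus strand, 40287633 to 40304657), the ATPase that loads the helicase together with CDT1, stood at 106, 111 and 104 CPM with BRSK2 and at 108, 112 and 108 with BRSK1, below all 4 controls (120.4 and 119 in hcRED, 123 and 124 in Mock). It fell with BRSK2 by 0.18 on the log2 scale (-0.18 ± 0.06, adjusted p = 0.0449), and with BRSK1 was at -0.15 ± 0.06 (adjusted p = 0.0945). The CDC6 call with BRSK2 was close to the threshold: 17 of the 26 alternatives ended it, including every library left out except BRSK1 replicate 2, with adjusted p from 0.0501 (without BRSK2 replicate 1) to 0.225 (without BRSK2 replicate 3), and each control alone (0.198 for hcRED and 0.0666 for Mock).

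ORC1 (chromosome 1, minus strand, 52372829 to 52404459), the largest subunit of the origin recognition complex, stood at 61.9, 66.2 and 74.2 CPM with BRSK2 and at 65.3, 64.1 and 67.0 with BRSK1, above the controls (61.0 and 55.3 in hcRED, 53.7 and 55.4 in Mock). It rose with BRSK2 by 0.26 ± 0.07 (adjusted p = 0.0239) and was at 0.22 ± 0.07 with BRSK1 (adjusted p = 0.0607). The BRSK2 call did not hold without BRSK2 replicate 2 (adjusted p = 0.0584), BRSK2 replicate 3 (0.221), Mock replicate 2 (0.0546) or hcRED replicate 3 (0.105), against hcRED alone (0.168) and by library totals alone (0.132). With BRSK1, ORC1 passed in 6 alternatives, among them DESeq2 (0.0493), the correction for GC content (0.0445) and BRSK2 replicate 1 left out (0.0292). ORC6, another subunit, passed with neither kinase.

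Log2 fold changes of the 6 MCM helicase subunits ran from -0.12 (MCM6) to 0.20 (MCM7) for BRSK2 and from -0.12 to 0.07 for BRSK1, and 5 of the 6 did not pass with BRSK2. MCM7 (chromosome 7, minus strand, 100092728 to 100101940) stood at 767, 823 and 809 CPM with BRSK2, at 744, 715 and 728 with BRSK1, at 685 and 648 in hcRED and at 745 and 702 in Mock. It rose with BRSK2 by 0.20 ± 0.06 (adjusted p = 0.0302), but not against Mock alone (adjusted p = 0.227), nor with a correction for GC content (0.072) or library totals alone (0.285). It also missed the threshold without BRSK2 replicate 2 (adjusted p = 0.126), BRSK2 replicate 3 (0.147), Mock replicate 3 (0.106), hcRED replicate 1 (0.0635) or hcRED replicate 3 (0.117). With BRSK1, edgeR called 0 of the 6 subunits, with 0 at an unadjusted p under 0.05 and 0 by DESeq2 or limma-voom.

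At the step after licensing, CDC45 and the 4 GINS subunits join the MCM ring to form the active helicase. With BRSK2, CDC45 rose and GINS1 fell. CDC45 (chromosome 22, plus strand, 19479459 to 19520612) stood at 101, 126 and 117 CPM with BRSK2 and at 107, 105 and 104 with BRSK1, and the controls at 91.7 and 97.6 in hcRED and 97.1 and 92.0 in Mock. It rose by 0.28 ± 0.07 for BRSK2 (adjusted p = 0.011), and the BRSK1 value was 0.16 ± 0.07 (adjusted p = 0.168), and both kinase groups lay above all controls. Its call did not hold without BRSK2 replicate 2 (adjusted p = 0.108), BRSK2 replicate 3 (0.0819) or hcRED replicate 1 (0.0631), against hcRED alone (0.0526) and by library totals alone (0.0805).

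GINS1 (chromosome 20, plus strand, 25407727 to 25452628) stood at 80.5, 83.6 and 86.9 CPM with BRSK2, below every other library: 99.2, 101 and 93.4 with BRSK1, 97.4 and 103 in hcRED, 94.95 and 102 in Mock. It fell with BRSK2 by 0.24 on the log2 scale (-0.24 ± 0.06, adjusted p = 0.0136) and was at -0.02 ± 0.06 with BRSK1 (adjusted p = 0.894). That call did not hold without BRSK2 replicate 2 (adjusted p = 0.0564), Mock replicate 3 (0.0539) or hcRED replicate 3 (0.0613), and against Mock alone (0.0556). GINS3 was at 0.30 ± 0.09 with BRSK2 (adjusted p = 0.052) and GINS4 at -0.23 ± 0.08 (adjusted p = 0.0636). Neither passed, though GINS3 passed in 6 alternatives, among them DESeq2 (0.0458) and Mock alone (0.0285), and GINS4 in 4; with BRSK2 replicate 1 left out both passed (0.00566 and 0.0468), and GINS4 also did with Mock replicate 3 left out (0.0402). GINS2 and MCM10, an initiation factor, did not pass with either kinase.

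**Figure D3:**
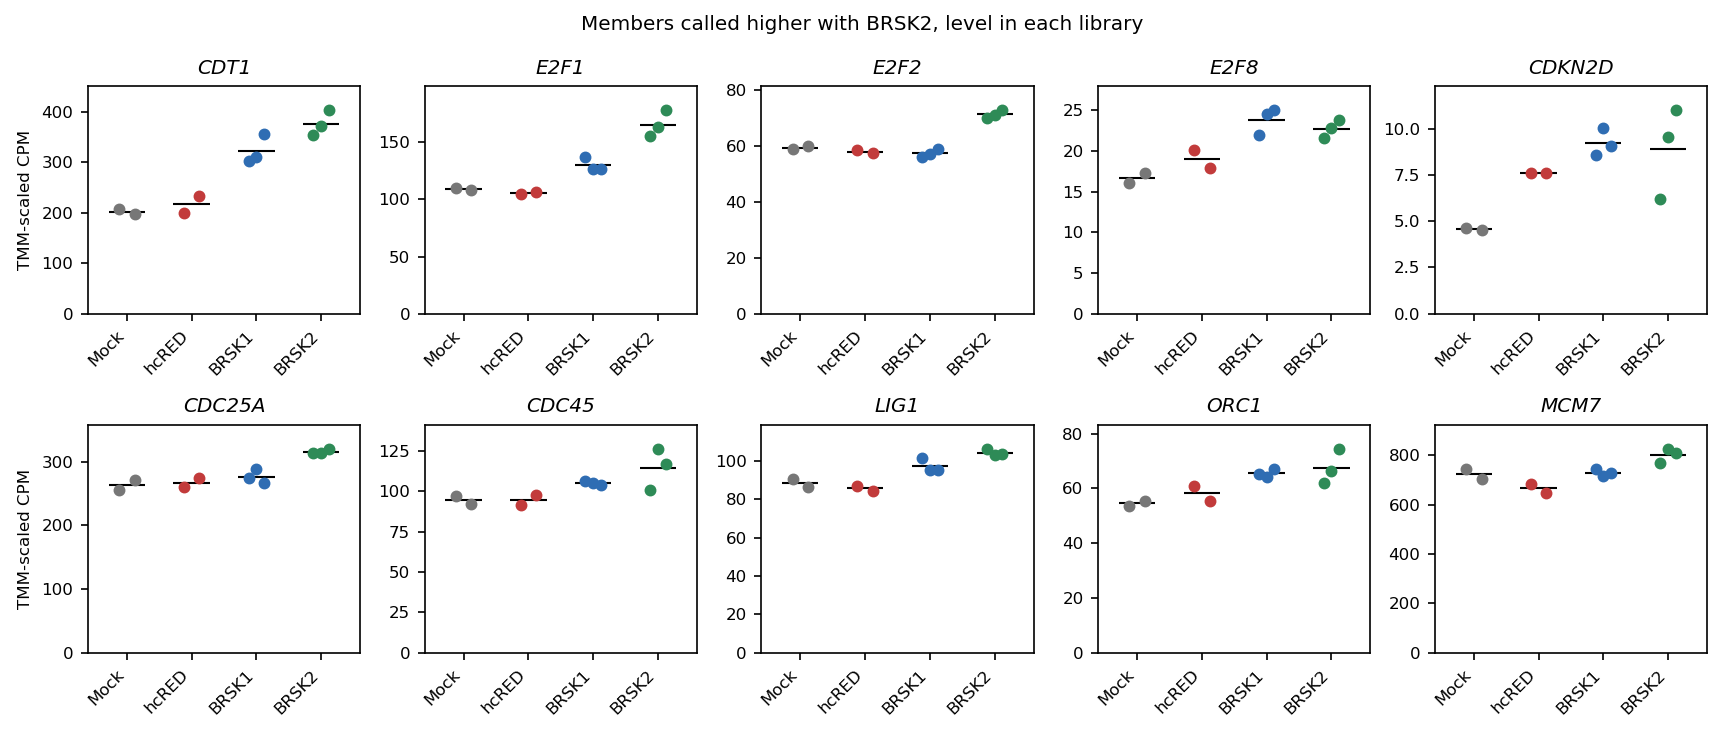
TMM-scaled CPM (y axis, from 0) of the 10 genes called higher with BRSK2, in each library (points) of the Mock, hcRED, BRSK1 and BRSK2 groups (x axis), with the group mean as a horizontal line. For CDT1 all kinase libraries (302 to 402 CPM) lie above all controls (198 to 234), for E2F2 only the BRSK2 libraries do, and for CDKN2D the lowest BRSK2 library (6.18) lies below both hcRED libraries.

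Of the G1 cyclins and CDC25A, 1 of 6 rose with BRSK2 and 1 fell, beside 4.77% and 3.05% of all tested genes. Cyclin D1 (CCND1; chromosome 11, plus strand, 69641087 to 69654474), which pairs with CDK4 and CDK6, stood at 11.4, 11.3 and 10.7 CPM with BRSK2 and at 13.1, 12.5 and 12.2 with BRSK1. It stood at 15.01 and 12.96 CPM in hcRED and 14.9 and 14.8 in Mock, so the BRSK2 libraries were the lowest of all. CCND1 fell with BRSK2 by 0.37 on the log2 scale (-0.37 ± 0.11, adjusted p = 0.0328) and was at -0.20 ± 0.10 with BRSK1 (adjusted p = 0.27). The call was lost against either control alone (adjusted p = 0.155 for hcRED and 0.0512 for Mock) and without BRSK2 replicate 2 (0.0971), BRSK2 replicate 3 (0.154), Mock replicate 2 (0.0591), Mock replicate 3 (0.0751) or hcRED replicate 1 (0.136), and when only the groups compared were fitted (0.0545). CCND2, CCND3, CCNE1 and CCNE2 lay between 0.02 and 0.08 with BRSK2 and passed with neither kinase.

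CDC25A (chromosome 3, minus strand, 48157146 to 48188402), the phosphatase that activates CDK2, stood at 314, 314 and 319.5 CPM with BRSK2, above all other libraries: 274, 289 and 267 with BRSK1, 261 and 274 in hcRED, 255 and 272 in Mock. It rose with BRSK2 by 0.25 ± 0.06 (adjusted p = 0.00627) and was at 0.06 ± 0.06 with BRSK1 (adjusted p = 0.574). Its BRSK2 call did not hold without BRSK2 replicate 3 (adjusted p = 0.0542) and by library totals alone (0.0869). Of the 6 genes in this group 0 passed with BRSK1 by edgeR, DESeq2 or limma-voom, and 0 had an unadjusted p under 0.05.

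Of the 4 CDK inhibitors, CDKN2D rose and CDKN2C fell with BRSK2. CDKN2D (p19INK4d; chromosome 19, minus strand, 10566462 to 10569059), an inhibitor of CDK4 and CDK6, was one of the lower expressed genes of the list, at 6.18, 9.58 and 10.99 CPM with BRSK2 and 8.56, 10.0 and 9.08 with BRSK1. The hcRED libraries were at 7.63 and 7.63 CPM and the Mock libraries at 4.64 and 4.55. It rose by 0.59 ± 0.16 for BRSK2 (adjusted p = 0.0252), and the BRSK1 value was 0.64 ± 0.16 (adjusted p = 0.0171) against the mean of both control groups. Against hcRED alone the values were 0.22 (adjusted p = 0.588) and 0.28 (adjusted p = 0.531), and against Mock alone 0.95 (adjusted p = 0.00664) and 1.01 (adjusted p = 0.00486). CDKN2D was itself at 0.73 ± 0.22 in hcRED against Mock (adjusted p = 0.262, unadjusted p = 0.00241).

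Single libraries also decided the CDKN2D calls. With BRSK2 it did not hold without BRSK2 replicate 2 (adjusted p = 0.118), BRSK2 replicate 3 (0.227), Mock replicate 3 (0.0682), hcRED replicate 1 (0.0736) or hcRED replicate 3 (0.0648), and by limma-voom (0.0536). With BRSK1 it was lost without BRSK1 replicate 2 (adjusted p = 0.0812), BRSK1 replicate 3 (0.0718) or hcRED replicate 1 (0.0642). With all 4 controls as 1 group neither passed (adjusted p = 0.132 and 0.1).

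CDKN2C (p18INK4c; chromosome 1, plus strand, 50960745 to 50974633), which also inhibits CDK4 and CDK6, stood at 82.7, 76.9 and 73.6 CPM with BRSK2, below all other libraries (86.7 to 97.9 with BRSK1, 93.0 and 89.9 in hcRED, 86.5 and 90.3 in Mock). It fell with BRSK2 by 0.21 on the log2 scale (-0.21 ± 0.06, adjusted p = 0.0454) and was at 0.06 ± 0.06 with BRSK1 (adjusted p = 0.632). That call was lost in 15 of 26 alternatives, among them every library left out except BRSK1 replicate 2 and BRSK2 replicate 1, with adjusted p from 0.0506 (without Mock replicate 2) to 0.249 (without BRSK2 replicate 3). CDKN1B (p27), which binds CDK2 complexes, was at 0.21 ± 0.07 for BRSK2 (adjusted p = 0.0671), and the BRSK1 value was 0.18 ± 0.07 (adjusted p = 0.13). CDKN1B passed with BRSK2 against Mock alone (0.0423) and without BRSK2 replicate 1 (0.0199). CDKN1C (p57), the lowest expressed member per length, was at 0.05 ± 0.18 with BRSK2 and 0.10 ± 0.18 with BRSK1 and passed with neither.

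**Figure D4:**
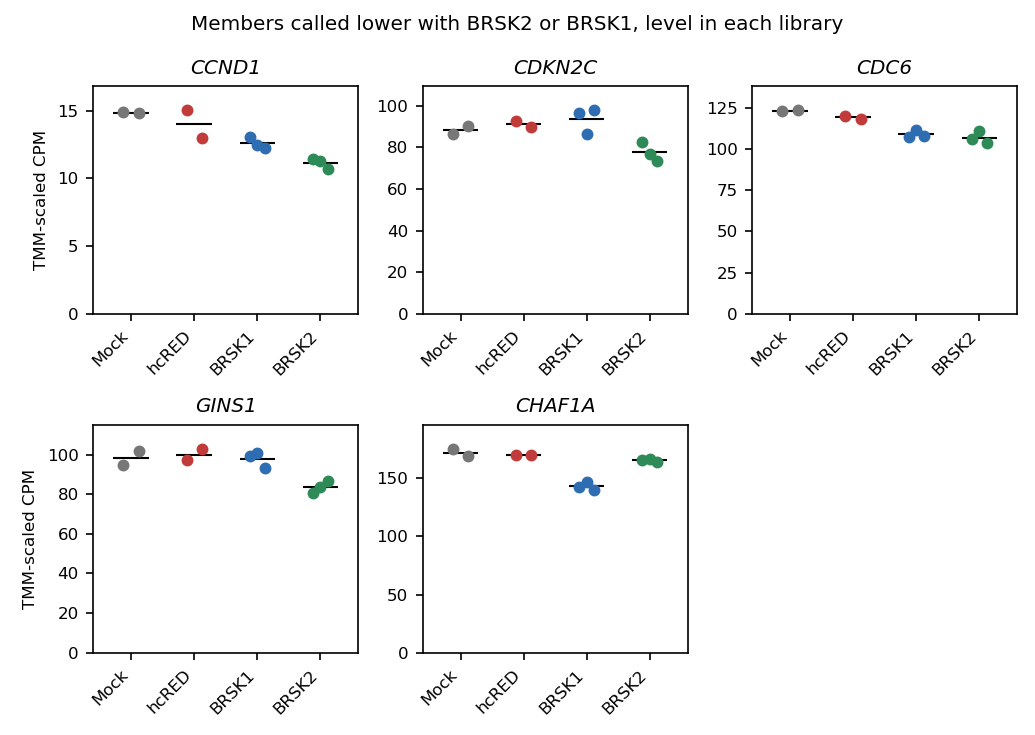
TMM-scaled CPM (y axis, from 0) of the 4 genes called lower with BRSK2 (CCND1, CDKN2C, CDC6 and GINS1) and of CHAF1A, called lower with BRSK1, in each library (points) of the 4 groups (x axis), with the group mean as a horizontal line. The BRSK2 libraries are the lowest of all for CCND1, CDKN2C and GINS1, and the BRSK1 libraries (140 to 147 CPM) are the lowest for CHAF1A.

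At the replication fork, 1 of 10 genes (10%) passed with BRSK2, which is near the 7.82% of all tested genes. LIG1 (chromosome 19, minus strand, 48115445 to 48170603), the ligase that joins Okazaki fragments, stood at 106, 103 and 104 CPM with BRSK2, at 102, 95.3 and 95.3 with BRSK1, at 87.2 and 84.5 in hcRED and at 90.6 and 86.4 in Mock. Both kinase groups lay above all controls. LIG1 rose with BRSK2 by 0.26 ± 0.06 (adjusted p = 0.00676), a call lost in 1 of 26 alternatives, library totals alone (adjusted p = 0.0828), and was at 0.16 ± 0.06 with BRSK1 (adjusted p = 0.0931). FEN1, the flap nuclease that acts just before LIG1, was at -0.13 ± 0.06 for BRSK2 (adjusted p = 0.183), and the BRSK1 value was -0.16 ± 0.06 (adjusted p = 0.0957), below all controls in both groups. PRIM1, the catalytic primase subunit, was at 0.32 ± 0.10 with each kinase (adjusted p = 0.0604 and 0.0599), above all controls in both groups.

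PRIM1 passed with BRSK2 in 3 alternatives, among them the correction for GC content (adjusted p = 0.0277) and BRSK2 replicate 1 left out (0.0182), which also brought PRIM1 below the threshold with BRSK1 (0.0329). The clamp PCNA was at 0.00 ± 0.06 with BRSK2 and 0.07 ± 0.06 with BRSK1. RFC4, a clamp loader subunit, stood at 0.21 ± 0.08 with each kinase (adjusted p = 0.107 and 0.119), and passed with BRSK2 when its replicate 1 was left out (0.018). RPA2 (which binds single-stranded DNA), POLA1 and POLE (polymerase subunits), CLSPN (a checkpoint mediator) and UNG (which removes uracil) lay between -0.12 and 0.08 with BRSK2 and passed with neither kinase. With BRSK1, edgeR called 0 of the 10 fork genes, with 5 at an unadjusted p under 0.05 and 0 by DESeq2 or limma-voom.

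The genes of nucleotide supply did not pass. RRM1 and RRM2, the subunits of ribonucleotide reductase, were at 0.08 ± 0.05 and 0.02 ± 0.06 with BRSK2 and at 0.09 ± 0.05 and 0.01 ± 0.06 with BRSK1. TK1, thymidine kinase, was at -0.08 ± 0.06 and -0.16 ± 0.06, and TYMS, thymidylate synthase, at 0.32 ± 0.17 and -0.09 ± 0.17. Called genes numbered 0 of 4 with each kinase by edgeR, DESeq2 and limma-voom, with 0 at an unadjusted p under 0.05 with BRSK2 and 1 with BRSK1.

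Among the chromatin genes, CHAF1A (chromosome 19, plus strand, 4402662 to 4445018), the large subunit of the CAF-1 histone chaperone, was the only one of the 50 genes that fell with BRSK1. It stood at 142, 147 and 140 CPM with BRSK1, and at 166, 167 and 164 with BRSK2, 170.4 and 170.2 in hcRED and 175 and 169 in Mock. The BRSK1 libraries lay below all others, at -0.26 ± 0.05 (adjusted p = 0.00606), while BRSK2 was at -0.05 ± 0.05 (adjusted p = 0.646). Its BRSK1 call was lost without BRSK1 replicate 3 (adjusted p = 0.0541) and against hcRED alone (0.0534). CHAF1B, its partner subunit, was at 0.12 ± 0.06 with BRSK1, and UHRF1, which guides maintenance methylation, and SLBP, which binds histone messages, also did not pass with either kinase.

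With BRSK1 as a whole, 4 of the 50 genes rose (CDT1, E2F1, E2F8 and CDKN2D) and CHAF1A fell. The 5 calls are 10% of the list, beside 6.43% of all tested genes, which is near the background (3.77% called higher and 2.66% lower). In 9 of the 50 genes all BRSK1 libraries lay above all controls and in 7 below, beside 9.93% and 8.43% of all tested genes (18.4% either way). The list's median was 0.02 with BRSK1. Without BRSK1 replicate 3 only CDT1 and E2F1 were called. In the authors' deposited table for BRSK2, which holds 723 genes in all, 8 of the 50 genes were listed, 7 higher and 1 lower. In that for BRSK1, which holds 879 genes, 5 of the 50 were listed, 4 higher and 1 lower. All of these had the same direction and a call here, and the authors' deposited table gave CDT1 as 0.86 with BRSK2 and 0.63 with BRSK1.

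**Figure D5:**
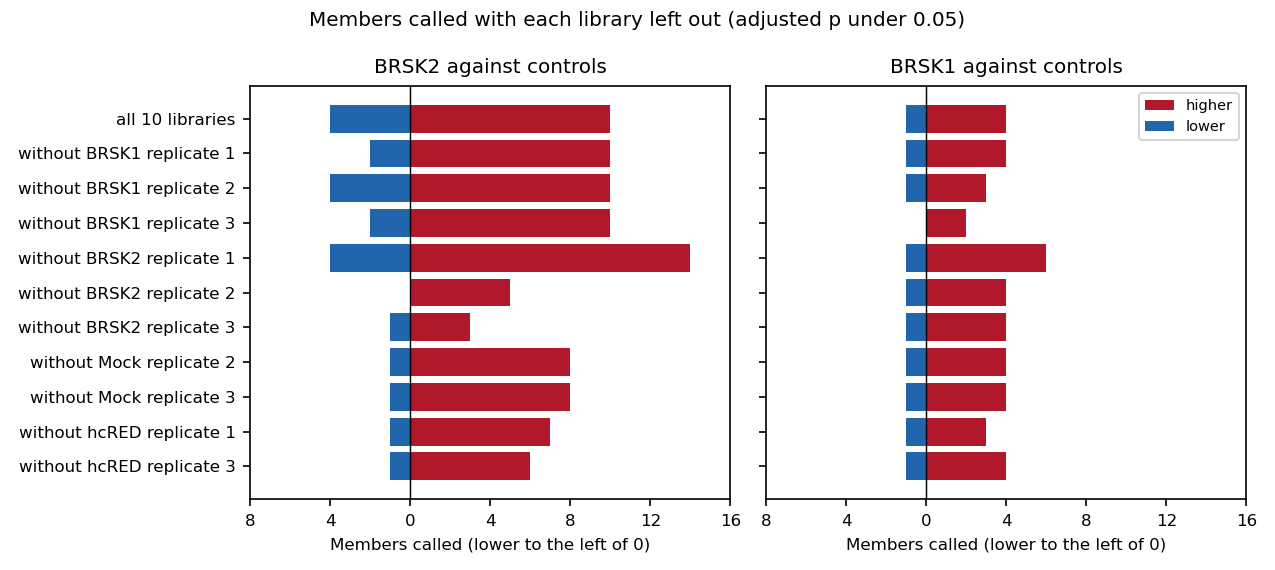
Number of the 50 genes called (x axis, higher to the right of 0 and lower to the left, adjusted p under 0.05) with all 10 libraries and with each library left out in turn (y axis), for BRSK2 and for BRSK1 against the controls. With BRSK2 the total runs from 4 (without BRSK2 replicate 3) to 18 (without BRSK2 replicate 1), and with BRSK1 from 2 (without BRSK1 replicate 3) to 7 (without BRSK2 replicate 1).

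The count with BRSK2 depended on single libraries and on the control. Leaving out replicate 3 of BRSK2 gave 4, beside 2.05% of all tested genes. Leaving out replicate 2 gave 5 (beside 3.81%) and leaving out replicate 1 gave 18 (beside 13.1%). Each left-out control also lowered the count, but left 1 library in its group. The list's median log2 fold change was then 0.046 to 0.066, beside 0.006 to 0.008 for all tested genes. The count was 7 against hcRED alone, beside 3.58% of all tested genes, and 11 against Mock alone, beside 5.5%. The plot of calls by left-out library shows the counts for the libraries. When library totals alone set the scale, so that the very abundant BRSK2 transcript enters the scale, the median of all genes moved to -0.10. The list's calls moved to 3 higher (CDT1, E2F1 and CDKN2D) and 12 lower. Of all tested genes 494 were called higher and 2507 lower (17.7% either way). The list's median then was -0.03.

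The kinases were then compared with each other, and 2 of the 50 genes passed, E2F1 and E2F2, both higher with BRSK2. That is 4% of the list beside 0.348% of all tested genes (0.23% higher and 0.118% lower). In 12 of the 50 genes all BRSK2 libraries lay above all BRSK1 libraries and in 3 below, beside 8.65% and 9.02% of all tested genes (17.7% either way). E2F1 was 0.34 ± 0.06 higher in BRSK2 than in BRSK1 (adjusted p = 0.0185) and E2F2 0.31 ± 0.07 (adjusted p = 0.038), with all 3 BRSK2 libraries above all 3 BRSK1 libraries for each. CDKN2C (-0.27 ± 0.07, adjusted p = 0.0914), CHAF1A (0.21 ± 0.06, adjusted p = 0.116), GINS1 (-0.23 ± 0.06, adjusted p = 0.135) and CDC25A (0.19 ± 0.06, adjusted p = 0.165) had fully separate libraries but did not pass. Of 23 alternatives, CDKN2C passed in 6, CHAF1A and GINS1 in 2 each, and CDC25A in DESeq2 alone. All 4 passed in DESeq2 (adjusted p = 0.0195, 0.0136, 0.04 and 0.0358). CDT1 was 0.22 ± 0.07 higher with BRSK2 and did not pass (adjusted p = 0.184), though it passed in 1 alternative, the replicate number as a block (0.032).

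GC content moved with this comparison. Over all tested genes the median log2 fold change of BRSK2 against BRSK1 was 0.10 for 2709 genes whose longest transcript had at least 60% GC and -0.07 for 5890 genes under 45%. The E2F1 transcript had 62.5% GC and that of E2F2 57.5%. After each library's trend with GC content was removed, E2F1 stood at 0.25 (adjusted p = 0.176) and E2F2 at 0.25 (adjusted p = 0.204), and of the 50 genes only CDKN2C passed (-0.34, adjusted p = 0.0333). E2F1 also lost its call without BRSK1 replicate 2 (adjusted p = 0.0894), BRSK1 replicate 3 (0.101), BRSK2 replicate 2 (0.0605) or BRSK2 replicate 3 (0.125). E2F2 did so without any 1 of BRSK1 replicate 1 (adjusted p = 0.155), BRSK1 replicate 2 (0.123), BRSK1 replicate 3 (0.101), BRSK2 replicate 2 (0.11), BRSK2 replicate 3 (0.15), hcRED replicate 1 (0.0623) or hcRED replicate 3 (0.0626).

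Against the controls the same GC classes stood at 0.06 and -0.04 with BRSK2, and at -0.04 and 0.03 with BRSK1. The median GC content was 56.9% for the 10 genes higher with BRSK2, 47.9% for the 4 lower and 49.2% for all tested genes. With the GC trend removed 10 were again higher and 4 lower with BRSK2 (MCM7 no longer called, PRIM1 called). Of all tested genes 7.8% were called in that run, 745 higher and 576 lower. CDT1 stood at 0.78 (adjusted p = 3.19e-07) and E2F1 at 0.56 (adjusted p = 1.87e-06).

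Between the control groups, edgeR called 0 of the 50 genes for hcRED against Mock, with 4 at an unadjusted p under 0.05 and 0 by DESeq2 or limma-voom, beside 0.0295% of all tested genes (0.0059% higher and 0.0236% lower). Both hcRED libraries lay above both Mock libraries in 7 of the 50 genes and below in 17, beside 20% and 20.3% of all tested genes (40.3% either way). The 4 genes with an unadjusted p under 0.05 were CDKN2D, UNG (-0.21 ± 0.07), RRM2 (-0.24 ± 0.08) and GINS3 (0.27 ± 0.12), and their adjusted p ran from 0.262 to 0.531. All 6 MCM helicase subunits were lower in both hcRED libraries than in both Mock libraries, by 0.05 to 0.14 on the log2 scale (fitted values from -0.14 to -0.05). None of the 6 passed by edgeR, and 0 had an unadjusted p under 0.05 or a call by DESeq2 or limma-voom.

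For the RB and E2F pathway beyond these genes, a second list of 91 genes was examined, of which 90 were tested. With BRSK2 10 rose and 3 fell, or 14.4% of those tested, beside 7.82% of all tested genes, with a median of 0.00. With BRSK1 8 rose and 3 fell, or 12.2%, beside 6.43% of all tested genes, with a median of 0.04. The catalytic subunit of polymerase delta, POLD1, was at 231 to 247 CPM with BRSK2 against 174 to 199 in the controls (0.35 ± 0.06, adjusted p = 0.000482), and was at 192 to 213 with BRSK1. RECQL4, a helicase of origin firing, rose with both, by 0.32 ± 0.06 and 0.19 ± 0.06 (adjusted p = 0.000831 and 0.0398). The BRSK2 calls of POLD1 and RECQL4 held in all 26 alternatives. The BRSK1 call of RECQL4 was lost in 11, among them each of 7 left-out libraries: BRSK1 replicates 1 (0.0797) and 3 (0.245), BRSK2 replicate 3 (0.0569), Mock replicates 2 (0.0517) and 3 (0.119), and hcRED replicates 1 (0.118) and 3 (0.113).

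Of the origin recognition subunits in that list, ORC5 rose and ORC4 fell with both kinases. ORC5 stood at 0.33 ± 0.08 for BRSK2 (adjusted p = 0.00837), and the BRSK1 value was 0.26 ± 0.07 (adjusted p = 0.0352), and ORC4 stood at -0.34 ± 0.07 and -0.24 ± 0.07 (adjusted p = 0.00452 with BRSK2 and 0.0399 with BRSK1). With BRSK2 both calls were lost when its replicate 3 was left out (0.0898 for ORC5 and 0.061 for ORC4), and that of ORC5 also against hcRED alone (0.0626). With BRSK1 neither held against hcRED alone (0.213 for ORC5 and 0.141 for ORC4) or Mock alone (0.0527 and 0.1). With BRSK1 the ORC5 call was lost for every left-out BRSK1, Mock or hcRED library (0.0599 to 0.131), and the ORC4 call for all of these but Mock replicate 2 (0.0886 to 0.142). CDKN1A (p21), a CDK inhibitor and p53 target, rose by 0.34 ± 0.08 for BRSK2 (adjusted p = 0.00964), and the BRSK1 value was 0.48 ± 0.08 (adjusted p = 0.000871). Its levels were 49.2, 55.8 and 60.6 CPM with BRSK2, 57.4, 58.9 and 66.7 with BRSK1, 45.6 and 49.9 in hcRED and 38.0 and 41.9 in Mock, so the lowest BRSK2 library lay within the range of the controls. Against hcRED alone neither CDKN1A call held (adjusted p = 0.241 with BRSK2 and 0.0676 with BRSK1), and that with BRSK2 was also lost without BRSK2 replicate 3 (0.117) or hcRED replicate 1 (0.0582).

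With BRSK1 the kinase CDC7 (0.26 ± 0.06), which fires origins, and the nucleoside kinase DCK (0.36 ± 0.08) rose. CAD, which starts pyrimidine synthesis, fell with BRSK1 (-0.24 ± 0.06, adjusted p = 0.0256), although its libraries overlapped those of the controls. The mitochondrial nucleoside kinase TK2 rose with both kinases. Its log2 difference was 0.58 ± 0.15 for BRSK2 (adjusted p = 0.0201), and the BRSK1 value was 0.66 ± 0.15 (adjusted p = 0.0106). POLE4, a small subunit of polymerase epsilon, fell with both (-0.33 ± 0.08 with each). Against hcRED alone CDC7 (adjusted p = 0.124), TK2 (0.24), DCK (0.134) and CAD (0.705) were not called with BRSK1, nor was TK2 with BRSK2 (0.291). Against Mock alone POLE4 was called with neither (0.0771 with BRSK2 and 0.0726 with BRSK1). Without BRSK1 replicate 2 neither were TK2 (0.0565), DCK (0.0711), POLE4 (0.0578) and CAD (0.112). CAD was also lost without BRSK1 replicate 3 (0.113), Mock replicate 2 (0.0506) or hcRED replicate 1 (0.139), and with all 4 controls as 1 group (0.12). The BRSK2 call of TK2 was lost without its replicate 3 (0.164), Mock replicate 2 (0.0585), hcRED replicate 1 (0.0576) or hcRED replicate 3 (0.0582). DCK was also lost without hcRED replicate 3 (0.0503), and POLE4 without BRSK1 replicate 3 (0.0609), Mock replicate 2 (0.0531) or hcRED replicate 1 (0.0647) and, with BRSK2, without BRSK2 replicate 3 (0.096).

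The RB family and E2F partner genes of the second list did not pass: 12 of 12 ran from -0.18 to 0.14 for BRSK2 and from -0.13 to 0.16 for BRSK1. Between the kinases edgeR called 0 of the 90 genes, beside 0.348% of all tested genes. Of the 90, 19 had an unadjusted p under 0.05, and 1 was called by DESeq2 and 0 by limma-voom. The largest difference in significance was that of POLD1, 0.22 ± 0.06 higher with BRSK2 (adjusted p = 0.125).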

How the data were processed

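The members and both gene lists were chosen with earlier results of these data known. STAR, edgeR, limma and the build hg38 are named in the submitters' processing notes. Which program counted reads, whether by strand, and on which annotation is not given in the sources used here. For each kinase, raw gene-level read counts were deposited by the authors, and the control columns were the same in both (0 genes differed), so the tables were joined into 10 libraries. The authors also deposited log2 CPM values, used only as a check, and tables of log2 fold changes, p-values, adjusted p-values and limma scores (scores not used). 

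Counts were tested with edgeR 4.0.16 in R 4.3.3: TMM factors, filterByExpr (minimum count 10, minimum total 15), robust glmQLFit with 4 group means over all libraries, and Benjamini-Hochberg adjustment over all 16936 tested genes, threshold 0.05. Contrasts set BRSK2 and BRSK1 each against the average of both control group means, BRSK2 against BRSK1, and hcRED against Mock. Standard errors were taken as the absolute fitted log2 value over the root of its F statistic. The alternatives were other scalings and filters, DESeq2 1.42.0, limma-voom (limma 3.58.1), no robust estimation, a threshold of 0.01, the replicate number as a block, single control groups or all controls as 1 group, only the groups compared, a per-library correction for GC content (lowess, span 0.3, longest GENCODE 29 transcript) and each library left out. All 50 members could be named; of the second list, up to 6 genes by p in each comparison were. The steps were tested on simulated counts with changes larger than most of those called here, so that test does not cover the smaller changes. Promoters are from RefSeq (41 of 50 symbols matched), and figures were drawn with matplotlib 3.10.9. Where a group was left with 1 library, that library was assumed to vary like the others.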

Additional observations from a re-analysis of the deposited data

How the results depend on the processing

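With BRSK2 the 14 calls among the 50 genes ran from 4 to 18 with 1 library left out, those with BRSK1 (5) from 2 to 7, those between the kinases (2) from 0 to 3, and those for hcRED against Mock stayed at 0. Over all tested genes the same runs gave 346 to 2211 calls with BRSK2 (1325 with all libraries), 204 to 1751 with BRSK1 (1089), 7 to 64 between the kinases (59) and 0 to 49 for hcRED against Mock (5). An adjusted p under 0.01 left 5 with BRSK2 and 0 between the kinases, beside 479 and 6 of all tested genes. Against hcRED alone 7 were called with BRSK2 and 2 with BRSK1, beside 606 and 133 of all tested genes. Between the kinases DESeq2 called 6, beside 190 of all tested genes. For the same comparison 1 was called without robust estimation, with only the groups compared, or with the GC correction. These runs called 14, 20 and 10 of all tested genes. The labels do not say whether a shared replicate number marks a shared batch. Of 12 pairs of libraries with the same number from different groups, 2 had deviations correlated above 0.1, with a median correlation of 0.046. Of 25 pairs with different numbers 0 did, with a median of -0.057 and a highest value of 0.1. The deviations were taken from group means, so the correlations are tied to each other and these medians are not independent. With the number as a replicate block, 19 were called with BRSK2, 10 with BRSK1, 5 between the kinases and 2 for hcRED against Mock, and 2153, 1999, 267 and 433 of all tested genes. CDT1 was among the 5 between the kinases under the block (0.23, adjusted p = 0.032). No called gene changed sign in any alternative. CDT1 and E2F1 were called with both kinases in all 26 alternatives, and every other call among the 50 was lost in at least 1. Over all genes, library totals alone called 494 higher and 2507 lower with BRSK2 (808 and 517 with TMM). The low counts of CDKN2D and TYMS (means of 7.89 and 15.2 CPM) limit their precision. The cause of the changes with either kinase was not tested.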
